A study of Mus musculus with 24 samples.

Results

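The genes described here are 36 mouse genes of cholesterol and fatty acid synthesis, chosen as a named list from the 39017 gene identifiers counted by RNA-seq. They comprise 8 genes of the mevalonate steps, 11 of the later sterol steps, 5 regulators of the pathway, 4 genes of sterol transport or liver X receptor (LXR) response, and 8 fatty acid genes. The first 19 (mevalonate and sterol steps) are called the sterol list. A mean of at least 5 counts per library was reached by 35 members and by 14361 genes in all. Abcg1, a sterol exporter of the ABC family, had 0 counts in all 24 libraries, which allows at most 0.0996 to 0.182 CPM (counts scaled to a common library total) per library, for counting error only.

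The libraries were polyA RNA-seq of NIH 3T3 cells, an established line of mouse fibroblasts, carrying an empty retroviral vector or 1 of 6 expressed proteins, with 3 libraries in each of 8 groups. EV is the empty vector and EVsub the empty vector at sub-confluence. TAZ-CAMTA1 joins the amino end of the coactivator TAZ to the carboxyl end of CAMTA1, and YAP-TFE3 joins the amino end of YAP to the carboxyl end of TFE3, as in a vascular sarcoma. TAZ4SA and YAP5SA are hyperactive forms whose LATS-phosphorylated serines were changed to alanine, and the last proteins are full-length TFE3 and full-length CAMTA1. All cells were stable, drug-selected pools that kept their own Yap1, Wwtr1, Tfe3 and Camta1, and they were collected 48 h after confluence except CAMTA1 and EVsub. Proteins collected at confluence were compared with EV, and CAMTA1 was compared with EVsub. The methods state that replicates came from separate transductions, so p-values measure the spread between separately transduced cultures of 1 line.

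Totals ran from 16471181 to 30132586 counts per library. All 7 fibroblast markers checked (such as Col1a1) were at 1 CPM or more on average in every group, while the summed adipocyte markers reached at most 10.3 CPM, in TAZ4SA. Summed macrophage markers were 3.1 to 4.38 CPM in EV, 16.4 to 67.5 CPM in TAZ4SA and 83.5 to 132.3 CPM in YAP5SA, with Adgre1 at 0 in every library. Of the genes whose proteins were expressed, Camta1 rose by 1.07 on the log2 scale in CAMTA1 and Wwtr1 by 0.28 in TAZ4SA, while Wwtr1 was not called in TAZ-CAMTA1 and Yap1 was not called in YAP-TFE3 and fell in YAP5SA (-0.86). Tfe3 was called in neither TFE3 (-0.30) nor YAP-TFE3 (-0.16) but rose in TAZ4SA (0.58) and YAP5SA (0.87). Camta1 was likewise not called in TAZ-CAMTA1 (-0.06). Compared directly, Wwtr1 was not called between TAZ4SA and YAP5SA (0.13, adjusted p = 0.27) or between TAZ-CAMTA1 and TAZ4SA (-0.11, adjusted p = 0.32). The counts therefore do not check the labels of TFE3, YAP-TFE3, YAP5SA, TAZ-CAMTA1 or TAZ4SA. The study reports western blots of the tagged proteins in this cell line. In bulk RNA, a smaller share of cells that express a gene and less RNA per cell cannot be told apart.

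Cholesterol is built from acetyl-CoA through mevalonate, isoprenoids, squalene and lanosterol. Most of these enzymes are targets of SREBP-2 (from Srebf2), a membrane-held transcription factor that SCAP escorts to the Golgi for cleavage when sterols are low, while INSIG proteins hold it back when sterols are high. SREBP-1 (from Srebf1) acts more on fatty acid genes, and LXR, which senses oxysterols, drives sterol efflux genes such as Abca1 and also Mylip, whose product marks lipoprotein receptors for degradation.

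RefSeq promoter windows (GRCm38.p6, 250 bases before to 50 bases after a start) matched 28 members, with 36 windows. The stretches that follow are shown because they hold the letters of 2 factor motifs relevant to these comparisons: a sterol regulatory element (TCACNCCAC), the kind of site SREBP binds, and an E-box (CACGTG), the palindrome that SREBP, TFE3 and other basic helix-loop-helix factors can bind. Capitals mark the match and both strands were searched.
Hmgcs1, chr13:119690187-119690249, plus strand, sterol regulatory element: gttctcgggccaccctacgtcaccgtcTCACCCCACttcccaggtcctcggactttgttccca
Insig1, chr5:28071284-28071343, plus strand, E-box: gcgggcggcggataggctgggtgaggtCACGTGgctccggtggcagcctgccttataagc
Hsd17b7, chr1:169969316-169969375, minus strand, E-box: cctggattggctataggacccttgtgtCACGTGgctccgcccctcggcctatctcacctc
Sc5d, chr9:42264366-42264425, minus strand, E-box: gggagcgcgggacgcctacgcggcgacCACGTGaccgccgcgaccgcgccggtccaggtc
Abca1, chr4:53160010-53160069, minus strand, E-box: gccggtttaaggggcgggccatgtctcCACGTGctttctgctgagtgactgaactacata

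The sterol regulatory element was found in the window of 1 matched member, Hmgcs1, and in 1.24% of all 32851 windows. Only the pattern given above was searched. The 8 members without a window (Abcg1, Fads1, Fdft1, Fdps, Scd1, Scd2, Sqle and Stard4) were not searched. E-box letters were found in windows of 6 members (the 4 printed, Dhcr7 and Scap), in 7 windows, which are 19.4% of the members' windows against 7.15% of all windows. CCAAT, the letters of the NF-Y box, stood in 63.9% of the members' windows and in 37.4% of all windows. GGAATG, the letters TEAD factors bind, stood in 0 of the 36 members' windows and in 14.7% of all windows. These are matches of letters in short windows and show no binding.

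Between 4 and 16 of the 19 sterol genes fell against EV in each group collected at confluence that carried an expressed protein. TAZ4SA had the most calls in that direction: 25 of the 35 measured members fell and 2 rose, against 57.5% of all genes called (26.4% lower and 31.1% higher). YAP-TFE3 lowered 21 members and raised 1, where 15.3% of all genes were called, 4.74% lower and 10.6% higher. In YAP5SA, 19 members fell and 9 rose, where 71.2% of all genes were called (34.9% lower and 36.3% higher), so its share of changed members was near the background. TAZ-CAMTA1 lowered 11 members and raised 0, against 21.5% of all genes called, 8.98% lower and 12.5% higher. In that group 4 of 8 markers of dividing cells were also called higher, with summed levels of 719.2 to 1023 CPM against 367.2 to 686.7 CPM in EV. Of these markers, 3 were called higher and 1 lower in YAP5SA, and 2 higher and 1 lower in TAZ4SA. In YAP-TFE3 and TFE3, 0 were called. The part of dividing cells in these results was not tested. TFE3 lowered 7 and raised 0, against 3.37% called, 1.02% lower and 2.35% higher. A call means an edgeR quasi-likelihood test with Benjamini-Hochberg adjusted p under 0.05 over all 14361 genes.

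Within the sterol list of 19 genes, 16 fell in TAZ4SA, 14 in YAP-TFE3, 12 in YAP5SA, 8 in TAZ-CAMTA1 and 4 in TFE3. The list's median log2 change against EV was -1.4 in TAZ4SA, -0.90 in YAP-TFE3, -0.85 in YAP5SA, -0.83 in TFE3 and -0.55 in TAZ-CAMTA1, while the median over all genes lay between -0.02 and 0.05 in these comparisons. All of these comparisons use the same 3 EV libraries. Counted by whether all 3 libraries lay outside the 3 EV libraries, 14 sterol genes were below and 1 above in TAZ4SA (26.2% and 29.8% of all genes), 15 and 1 in YAP-TFE3 (16.8% and 19.8%), 11 and 3 in YAP5SA (37.0% and 38.5%), 9 and 1 in TAZ-CAMTA1 (22.4% and 23.1%), and 12 and 0 in TFE3 (16% and 15.0%). TFE3 had a median close to that of YAP-TFE3 with fewer calls. At an unadjusted edgeR p under 0.05 there were 25 of the 35 members in TFE3, 29 in YAP-TFE3 and 17 in TAZ-CAMTA1. TAZ4SA had 30 and YAP5SA 28 at that level. The adjusted cutoff depends on how many genes change in a comparison, so counts of calls alone do not rank the groups.

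**Figure D1:**
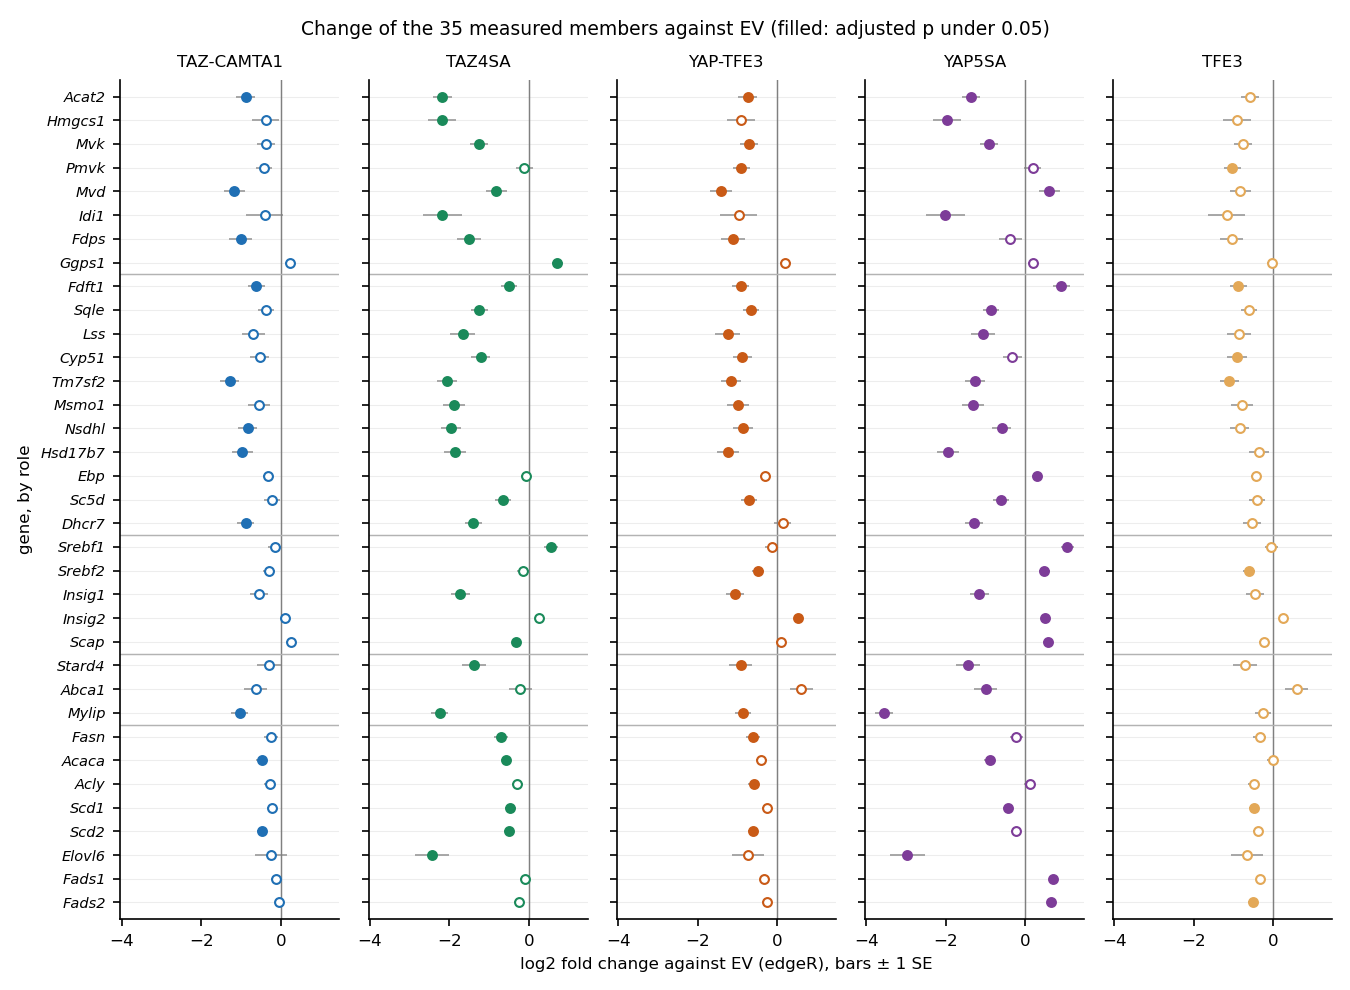
Log2 fold change of each of the 35 measured members against EV (x axis; points with bars of 1 SE), by role from top to bottom, in the 5 groups collected at confluence. Filled points have an adjusted p under 0.05; most sterol genes lie left of 0, while YAP5SA has Fdft1 (0.91), Mvd (0.60), Srebf1 (1.06) and Fads1 (0.70) to the right.

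In the groups collected at confluence, the calls that held under every alternative other than a fold threshold were Mvd, Tm7sf2, Dhcr7, Mylip and Scd2 in TAZ-CAMTA1, and Mvd, Pmvk, Fdft1, Tm7sf2, Hsd17b7, Insig1, Insig2, Mylip, Acly and Scd2 in YAP-TFE3. All calls did so in TAZ4SA but Fdft1, Mvd, Sc5d, Scap and Srebf1, and in YAP5SA but Ebp, Mvd, Nsdhl and Sc5d, while in TFE3 none did. Several of the counts depended on 1 library. The TFE3 count went from 7 to 0 without TFE3 replicate 2, to 1 without TFE3 replicate 3 or EV replicate 2, and to 3 without EV replicate 3. The YAP-TFE3 count went from 22 to 10 without YAP-TFE3 replicate 1, to 11 without EV replicate 2 and to 12 without EV replicate 3. The TAZ-CAMTA1 count of 11 became 5 without TAZ-CAMTA1 replicate 3 and 7 without TAZ-CAMTA1 replicate 1 or EV replicate 2. In TAZ4SA 24 to 28 members, and in YAP5SA 25 or 26, were called when any library was left out.

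The sterol genes also moved together among replicates of the same group. EV replicate 1 was the lowest of its 3 libraries for 19 of 19 sterol genes and 8 of 8 fatty acid genes, while it was lowest for 33.6% of all genes tested. TAZ-CAMTA1 replicate 2 was the highest for 19 of 19 sterol and 8 of 8 fatty acid genes (34.5% of all genes), and TFE3 replicate 1 for 18 of 19 and 8 of 8 (35.7% of all genes). EVsub replicate 2 was the lowest for 17 of 19 sterol and 5 of 8 fatty acid genes (34.1% of all genes). YAP-TFE3 replicate 1 and YAP5SA replicate 2 were the lowest for 16 of 19 and 8 of 8 each (36.4% and 34.3% of all genes). TAZ4SA replicate 3 was the highest for 15 of 19 sterol genes (36.7% of all genes). The fatty acid genes did not follow there: replicate 3 was the highest for 3 of 8 and replicate 2 for 5 of 8.

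The size of this spread was larger for sterol than for fatty acid genes. The median over the sterol list of the highest library divided by the lowest ran from 1.15 in CAMTA1 to 1.85 in TAZ4SA, against 1.1 to 1.28 for the fatty acid genes and 1.14 to 1.51 for all genes. Library totals had no single relation to the order of sterol levels. The library with the highest mean sterol level had the lowest total in 4 of 8 groups (EV, EVsub, TAZ-CAMTA1 and TFE3). The whole order was reversed in EV and EVsub and the same in YAP-TFE3. In EV, replicate 1 had 22419096 counts, replicate 3 21750297 and replicate 2 19981310. Summed markers of dividing cells were 367.2 CPM in EV replicate 1, 686.7 CPM in EV replicate 2 and 389.1 CPM in EV replicate 3, but in EVsub the replicate with low sterol genes had the highest value, 2040.0 CPM against 1541 and 716.0 CPM. The part of totals and of dividing cells in the spread was not tested.

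TAZ4SA replicate 3 stood apart from its group in more than the sterol genes. Its summed macrophage markers were the lowest of the group, at 16.4 CPM, and its dividing-cell markers the highest, at 771.0 CPM against 319.8 and 414.7 CPM. Without it 26 members were called in TAZ4SA, and values that it moved by over 1.5 times are given both ways.

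**Figure D2:**
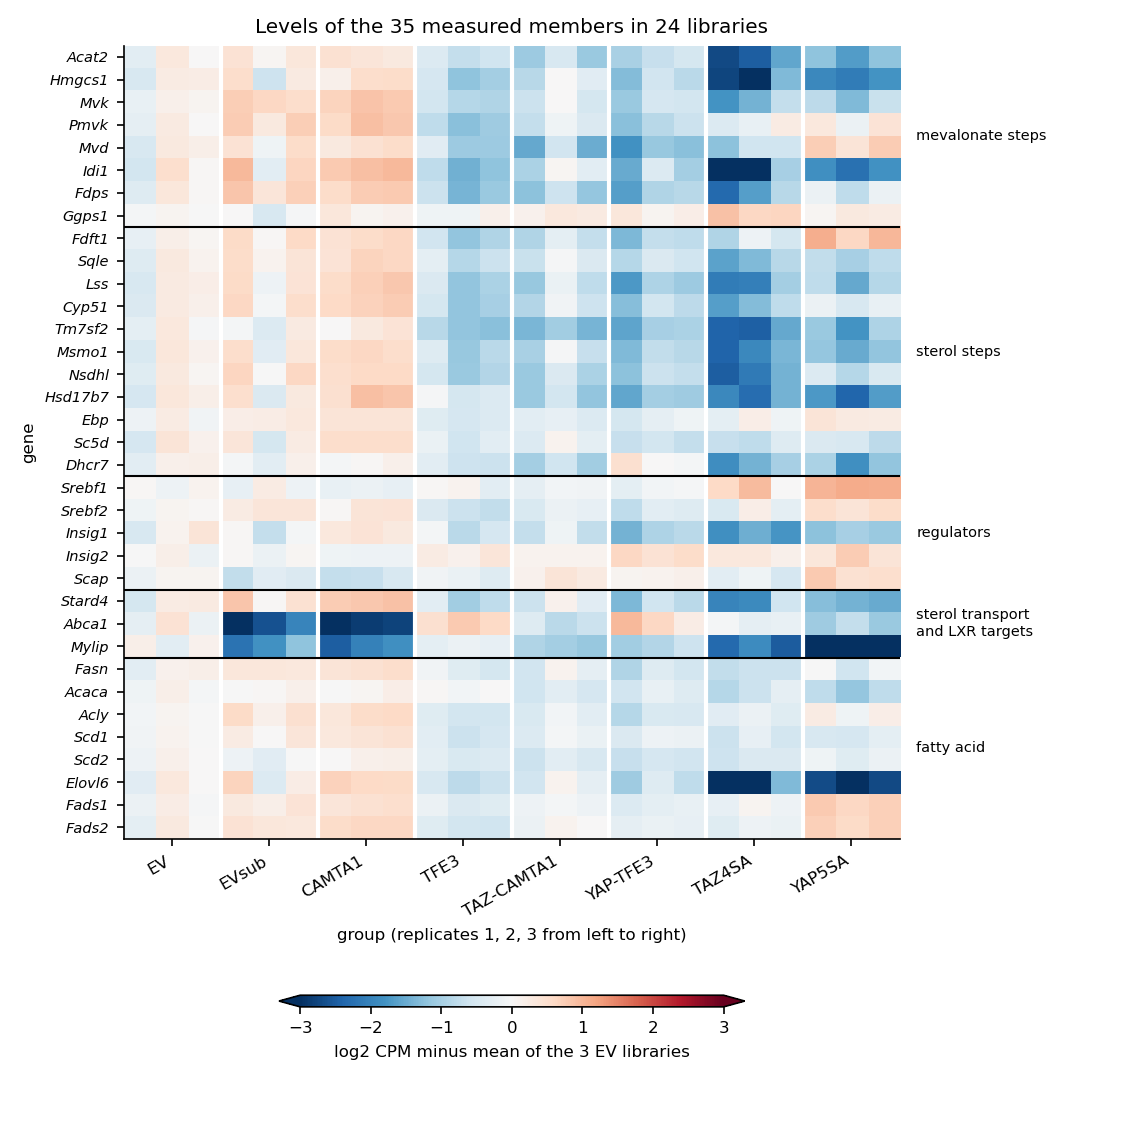
Log2 CPM of the 35 measured members in each of 24 libraries minus the mean of the 3 EV libraries (color; values past 3 in either direction are drawn at the limit). Within groups, whole columns of sterol genes are paler or darker together, as in TAZ-CAMTA1 replicate 2, TFE3 replicate 1 and TAZ4SA replicate 3.

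Among the mevalonate steps, Hmgcs1 (ENSMUSG00000093930, chromosome 13, positions 119690379 to 119708260 on mm10), which makes HMG-CoA and carries the sterol regulatory element printed above, had the lowest fitted value in TAZ4SA, next to near-equal values of Idi1 and Acat2. It stood at 262, 431 and 423 CPM in EV. The TAZ4SA libraries held 53.9, 45.7 and 145.4 CPM and the YAP5SA libraries 95.5, 84.2 and 105.0 CPM, so neither group overlapped EV. Hmgcs1 fell in TAZ4SA (log2 change -2.18 ± 0.36 SE, adjusted p = 2.5e-05) and in YAP5SA (-1.97 ± 0.36, adjusted p = 4.1e-05). Without TAZ4SA replicate 3 the first value was -2.90. In TAZ-CAMTA1 the levels were 203, 366 and 287 CPM, which overlapped EV (-0.38 ± 0.34, adjusted p = 0.47), and in YAP-TFE3 they were 147, 244 and 206 CPM, all below EV but not called (-0.90 ± 0.35, adjusted p = 0.084). TFE3 held 256.0, 156 and 179 CPM (-0.92 ± 0.35, adjusted p = 0.18).

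Idi1, the isomerase that interconverts the first isoprenoid units, showed the same order with wider spread. It had 29.0, 60.7 and 43.9 CPM in EV, 4.27, 2.70 and 21.5 CPM in TAZ4SA, and 12.0, 9.07 and 12.2 CPM in YAP5SA. It fell in TAZ4SA (log2 change -2.18 ± 0.49, adjusted p = 0.00067, and -3.64 without TAZ4SA replicate 3) and in YAP5SA (-2.01 ± 0.49, adjusted p = 0.00091). YAP-TFE3 (14.8, 32.3 and 20.9 CPM) overlapped EV, with a change of -0.97 ± 0.46 (adjusted p = 0.18).

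Acat2, the cytosolic thiolase that joins acetyl-CoA units, was called lower in 4 groups. Its levels were 140.0, 218 and 177 CPM in EV, and 26.7, 31.5 and 59.7 CPM in TAZ4SA. The other lowered groups held 76.2, 54.9 and 76.5 CPM (YAP5SA), 82.9, 125.8 and 81.0 CPM (TAZ-CAMTA1), and 88.8, 109 and 122 CPM (YAP-TFE3). No library of these 4 groups reached the lowest EV library. The log2 changes were -2.18 ± 0.24 in TAZ4SA, -1.37 ± 0.23 in YAP5SA, -0.88 ± 0.23 in TAZ-CAMTA1 and -0.74 ± 0.23 in YAP-TFE3 (adjusted p = 1.4e-07, 2.1e-05, 0.0079 and 0.03). The calls in the fusions were lost when some libraries were left out.

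Mvd, which decarboxylates mevalonate diphosphate, changed in opposite directions between YAP5SA and the fusions. EV held 63.2, 108 and 99.9 CPM. YAP5SA was higher in every library, at 148, 115 and 149.8 CPM (log2 change 0.60 ± 0.27, adjusted p = 0.046), whereas YAP-TFE3 held 25.2, 39.8 and 37.0 CPM (-1.41 ± 0.27, adjusted p = 0.00078) and TAZ-CAMTA1 30.3, 59.3 and 31.3 CPM (-1.17 ± 0.27, adjusted p = 0.0032). In TAZ4SA (37.3, 58.3 and 57.9 CPM) Mvd also fell, by 0.82 ± 0.27. The rise in YAP5SA was not called under every alternative, and the fall in TAZ4SA was likewise lost under some.

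Mvk, mevalonate kinase, fell in TAZ4SA (14.4, 18.7 and 30.4 CPM, from 42.9, 55.8 and 52.9 CPM in EV; -1.25 ± 0.23, adjusted p = 7.2e-05), in YAP5SA (29.3, 20.2 and 31.5 CPM; -0.91 ± 0.22) and in YAP-TFE3 (23.3, 35.2 and 34.1 CPM; -0.71 ± 0.22). It rose in EVsub, where the libraries held 83.9, 76.6 and 72.7 CPM (0.62 ± 0.22, adjusted p = 0.044). Of the remaining mevalonate genes, Fdps (farnesyl diphosphate synthase) fell in TAZ4SA, YAP-TFE3 and TAZ-CAMTA1 by 1.5, 1.11 and 1.01. In TFE3, Fdps (-1.05 ± 0.29, adjusted p = 0.052) and Mvk (-0.76 ± 0.22, adjusted p = 0.060) were below EV in every library but not called. Pmvk, phosphomevalonate kinase, fell in YAP-TFE3 and TFE3 by 0.90 and 1.03, and was not called in TAZ4SA (-0.12) or YAP5SA (0.19). Ggps1, which makes geranylgeranyl diphosphate for protein prenylation, went the other way: it rose by 0.72 ± 0.13 in TAZ4SA (adjusted p = 8.7e-05) and was not called in the other comparisons with a control. Its exons overlap Arid4b on the opposite strand, which fell by 0.93 in TAZ4SA and by 2.17 in YAP5SA, where Ggps1 was not called (0.19).

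The sterol steps begin with Fdft1, squalene synthase, which joins farnesyl units. Fdft1 held 144, 194 and 179 CPM in EV and 365, 262 and 343 CPM in YAP5SA, with every YAP5SA library above EV (log2 change 0.91 ± 0.21, adjusted p = 0.00066). The YAP-TFE3 libraries were at 67.3, 105 and 102 CPM (-0.92 ± 0.21, adjusted p = 0.0043) and those of TFE3 at 116, 74.9 and 91.3 CPM (-0.88 ± 0.21, adjusted p = 0.024). TAZ-CAMTA1 (92.2, 139 and 105 CPM) and TAZ4SA (91.7, 154.8 and 119.5 CPM) were lower by 0.62 and 0.50, and both of these calls were lost under some alternatives. Fdft1 shares exonic bases with the abundant Ctsb on the opposite strand, and Ctsb moved the other way from Fdft1 in YAP5SA (log2 change -0.70, adjusted p = 0.0017) and in TFE3 (0.67, adjusted p = 0.044), and the same way in TAZ4SA (-0.82, adjusted p = 0.00061). Whether the counting used strand was not stated.

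Tm7sf2, a sterol C14-reductase, was called lower in all 5 groups collected at confluence with an expressed protein. It held 23.2, 35.4 and 27.9 CPM in EV, 5.41, 5.17 and 9.85 CPM in TAZ4SA, 10.96, 13.7 and 10.7 CPM in TAZ-CAMTA1, 9.52, 14.2 and 14.7 CPM in YAP-TFE3, 13.1, 8.19 and 15.0 CPM in YAP5SA and 15.8, 12.5 and 11.9 CPM in TFE3. None of these 15 libraries reached the lowest EV value. The log2 changes were -2.06 ± 0.26, -1.29 ± 0.25, -1.17 ± 0.25, -1.25 ± 0.25 and -1.11 ± 0.25 in the same order. In TFE3 the adjusted p was 0.013 and the call was lost under some alternatives. Tm7sf2 overlaps Vps51 on its own strand, and Vps51 was called in none of these groups but YAP5SA, where it rose by 0.63.

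Nsdhl, a dehydrogenase of the C4-demethylation complex, stood at 118, 186 and 158 CPM in EV and at 27.4, 34.6 and 56.7 CPM in TAZ4SA (-1.96 ± 0.25, adjusted p = 1.1e-06). It held 70.3, 111 and 78.3 CPM in TAZ-CAMTA1 (-0.83 ± 0.24), 64.9, 97.4 and 92.7 CPM in YAP-TFE3 (-0.86 ± 0.24) and 113, 83.5 and 111 CPM in YAP5SA (-0.59 ± 0.24). All 4 were calls, although only that in TAZ4SA held under every alternative tried.

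Hsd17b7, the keto-reductase of the same complex and carrier of an E-box printed above, fell most in the hyperactive forms. It held 41.3, 73.4 and 65.4 CPM in EV, 15.2, 11.9 and 21.9 CPM in TAZ4SA and 17.6, 11.1 and 18.3 CPM in YAP5SA (-1.86 ± 0.28 and -1.94 ± 0.28, adjusted p = 6.4e-06 and 1.9e-06). YAP-TFE3 had 19.8, 28.8 and 27.8 CPM (-1.23 ± 0.27, adjusted p = 0.0022) and TAZ-CAMTA1 26.8, 39.95 and 25.5 CPM (-0.97 ± 0.27, adjusted p = 0.011), a call lost without TAZ-CAMTA1 replicate 3. TFE3, at 56.5, 40.2 and 43.8 CPM, overlapped EV and was not called (-0.36 ± 0.26, adjusted p = 0.61).

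The other sterol steps fell in TAZ4SA in 6 of 7 cases: Msmo1 (-1.88), Lss (-1.67), Dhcr7 (-1.4), Sqle (-1.25), Cyp51 (-1.22) and Sc5d (-0.64), with Ebp, a sterol isomerase, not called (-0.07). Sqle, squalene epoxidase, Lss, lanosterol synthase, Msmo1, the C4-methyl oxidase, and Sc5d, sterol C5-desaturase, also fell in YAP-TFE3 and YAP5SA. Cyp51, lanosterol demethylase, fell in YAP-TFE3 (-0.87) and TFE3 (-0.91) and was not called in YAP5SA (-0.32). Ebp rose in YAP5SA by 0.29, a call that was lost under some alternatives. Cyp51 and Lss also overlap other genes on the opposite strand (Akap9, which fell by 1.06 in YAP5SA, and 4930483K19Rik).

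Dhcr7, 7-dehydrocholesterol reductase, differed between the fusions. This gene was singled out after its values were seen. It held 37.2, 50.9 and 51.7 CPM in EV and 64.2, 46.5 and 44.2 CPM in YAP-TFE3, which overlapped EV (0.15 ± 0.21, adjusted p = 0.72). By contrast it held 22.7, 30.7 and 22.3 CPM in TAZ-CAMTA1 (-0.89 ± 0.22, adjusted p = 0.0048), 12.7, 17.2 and 23.0 CPM in TAZ4SA and 23.9, 13.0 and 20.3 CPM in YAP5SA (-1.29 ± 0.22, adjusted p = 2e-05). Compared directly, Dhcr7 was higher in YAP-TFE3 than in YAP5SA by 1.44 ± 0.22 (adjusted p = 5.5e-06) and lower in TAZ-CAMTA1 than in YAP-TFE3 by a log2 change of -1.03 ± 0.22 (adjusted p = 0.0029). Both calls remained when any library was left out, with values of 1.22 to 1.64 and of -1.2 to -0.86. The difference from TFE3 (0.68 ± 0.22, adjusted p = 0.024) was lost without YAP-TFE3 replicate 1 (0.46), TFE3 replicate 2 (0.63) or TFE3 replicate 3 (0.62).

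**Figure D3:**
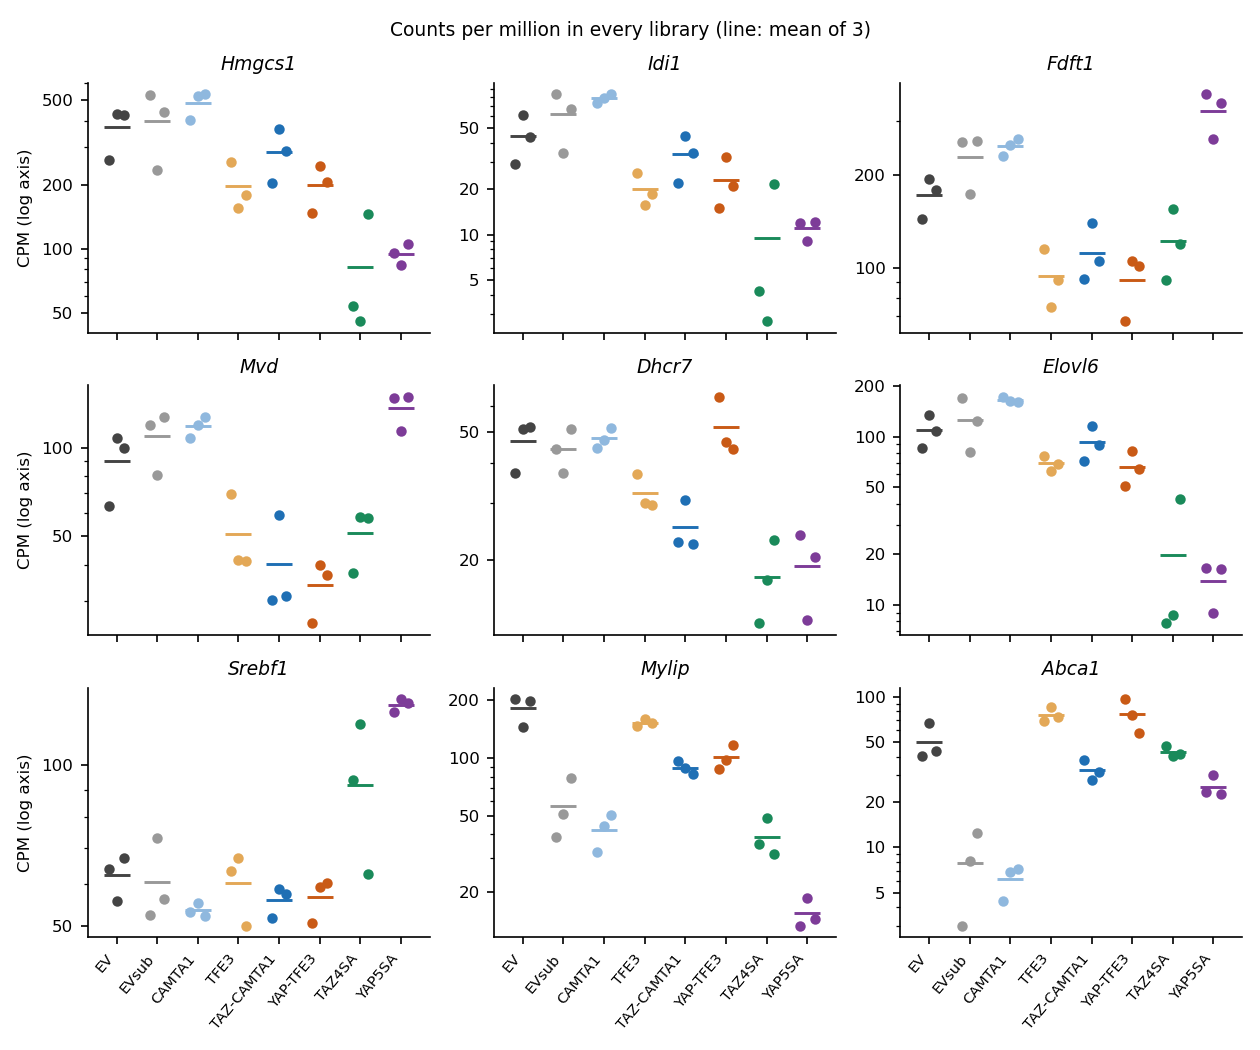
CPM of 9 members in each library (points; log axis) with the mean of 3 (line), by group. Hmgcs1, Idi1 and Elovl6 are lowest in TAZ4SA and YAP5SA, with TAZ4SA replicate 3 above its group; Fdft1 and Mvd are highest in YAP5SA; Dhcr7 in YAP-TFE3 sits at the EV level; and Abca1 is lowest in EVsub and CAMTA1.

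Of the regulators, Srebf1 and Srebf2, which encode the SREBPs, rose in YAP5SA. Srebf1 held 63.9, 55.8 and 67.1 CPM in EV and 125.9, 133 and 131 CPM in YAP5SA, a rise of 1.06 ± 0.17 (adjusted p = 6.1e-06). In TAZ4SA the levels were 93.7, 119 and 62.6 CPM, with replicate 3 inside the EV range, and the rise of 0.56 ± 0.17 (adjusted p = 0.0061) was lost without TAZ4SA replicate 2 (0.33, adjusted p = 0.079) and in a fit of these 2 groups alone (0.50, adjusted p = 0.094). Srebf1 was not called in TAZ-CAMTA1 (51.8, 58.5 and 57.4 CPM), YAP-TFE3 (50.7, 59.0 and 60.1 CPM) or TFE3 (63.3, 67.1 and 50.02 CPM). Rai1, which overlaps its exons on the opposite strand, fell in YAP5SA by 0.57.

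Srebf2 rose in YAP5SA, from 287, 329 and 321 CPM in EV to 449, 406 and 457 CPM (0.49 ± 0.15, adjusted p = 0.0062). It was lower in TFE3, at 232, 198 and 187 CPM (-0.60 ± 0.15, adjusted p = 0.027), and in YAP-TFE3, at 185, 251 and 239 CPM (-0.47 ± 0.15, adjusted p = 0.034), and both of these calls were lost under some alternatives. TAZ4SA (226, 359.5 and 256 CPM) and TAZ-CAMTA1 (226, 276 and 261 CPM) were not called.

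Insig1, the sterol-sensitive anchor of SCAP and itself an SREBP target, fell with the enzymes. It held 129.9, 194 and 236 CPM in EV, 50.8, 65.6 and 53.0 CPM in TAZ4SA (-1.73 ± 0.23, adjusted p = 2e-06), 77.0, 91.4 and 83.6 CPM in YAP5SA (-1.15 ± 0.23, adjusted p = 0.00012) and 67.6, 95.4 and 104 CPM in YAP-TFE3 (-1.07 ± 0.23, adjusted p = 0.002). No library of these 3 groups reached EV. Unlike most of the sterol list, Insig1 in TAZ4SA replicate 3 was level with the other replicates. TAZ-CAMTA1 (110, 167 and 109 CPM) was not called (-0.54, adjusted p = 0.094). Insig2, its relative, rose in YAP-TFE3 by 0.53 ± 0.11 and in YAP5SA by 0.50 ± 0.11. Scap rose in YAP5SA (0.58) and fell in TAZ4SA (-0.31) and EVsub (-0.50).

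Mylip, the ubiquitin ligase of lipoprotein receptors and an LXR target, had the largest change of any member. Its 3 EV libraries held 203, 145 and 199 CPM, against 13.4, 18.7 and 14.4 CPM in YAP5SA, 35.5, 48.6 and 31.7 CPM in TAZ4SA, 96.7, 88.3 and 82.2 CPM in TAZ-CAMTA1 and 87.5, 97.5 and 117 CPM in YAP-TFE3. Every one of these was below every EV library. The log2 changes were -3.55 ± 0.24, -2.25 ± 0.22, -1.03 ± 0.21 and -0.86 ± 0.21 (adjusted p = 2.7e-11, 2.6e-08, 0.0011 and 0.0063). TFE3 (146, 160.0 and 153 CPM) overlapped EV and was not called (-0.25). EVsub also held less, 38.9, 50.9 and 78.5 CPM (-1.7 ± 0.21, adjusted p = 1.5e-05), so Mylip was lower in sub-confluent cells with no expressed protein as well.

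Abca1, the main cellular cholesterol exporter and also an LXR target, was called in fewer groups than Mylip. It held 40.5, 66.6 and 43.8 CPM in EV and 3.01, 8.08 and 12.4 CPM in EVsub, a fall of 2.68 ± 0.31 (adjusted p = 7e-06). Among the expressed proteins it was called against EV in YAP5SA alone, at 23.3, 30.02 and 22.6 CPM (-0.99 ± 0.29, adjusted p = 0.0046). TAZ4SA (46.9, 40.7 and 41.9 CPM; -0.22 ± 0.29) and TAZ-CAMTA1 (37.8, 27.99 and 31.6 CPM; -0.63 ± 0.29) were not called, and neither were YAP-TFE3 (96.9, 75.8 and 57.7 CPM; 0.61 ± 0.29) and TFE3 (68.6, 85.1 and 73.7 CPM; 0.59 ± 0.29), although all TFE3 libraries were above EV. Tested directly, Abca1 was lower in TAZ-CAMTA1 than in YAP-TFE3 by a log2 change of -1.24 ± 0.29 (adjusted p = 0.0068).

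Stard4, a cytosolic sterol carrier and SREBP target, fell in 3 groups. It held 44.5, 76.0 and 76.5 CPM in EV, 16.1, 16.9 and 42.0 CPM in TAZ4SA (-1.38 ± 0.31, adjusted p = 0.00059, and -2.00 without TAZ4SA replicate 3) and 26.2, 24.03 and 22.4 CPM in YAP5SA (-1.44 ± 0.31, adjusted p = 0.00027). YAP-TFE3 held 25.2, 42.4 and 36.3 CPM (-0.92 ± 0.30, adjusted p = 0.041), which was lost under some alternatives. TAZ-CAMTA1 (40.5, 69.4 and 50.6 CPM) and TFE3 (51.0, 31.1 and 37.4 CPM) were not called.

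Of the 8 fatty acid genes, 5 fell in TAZ4SA, 3 in YAP-TFE3, 2 in TAZ-CAMTA1 and 2 in TFE3, and none rose in these groups. In YAP5SA, 3 fell and 2 rose. The shares called in either direction in TAZ4SA, YAP5SA and TAZ-CAMTA1 were near or below those of all genes (57.5%, 71.2% and 21.5%), while 15.3% of all genes were called in YAP-TFE3 and 3.37% in TFE3. Of all genes, 26.4% were called lower in TAZ4SA, 34.9% in YAP5SA and 8.98% in TAZ-CAMTA1. The lower shares were 4.74% in YAP-TFE3 and 1.02% in TFE3. Per kilobase of exon, Scd2, a stearoyl-CoA desaturase, was the most abundant member in EV, at 352 CPM per kb, followed by Acly, ATP citrate lyase, at 99.5 CPM per kb.

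Elovl6 (ENSMUSG00000041220, chromosome 3, positions 129532355 to 129638495 on mm10), which extends palmitate, had the largest falls of the list. It stood at 85.3, 134.5 and 108 CPM in EV, 7.79, 8.77 and 42.6 CPM in TAZ4SA and 16.6, 8.98 and 16.3 CPM in YAP5SA. It fell in TAZ4SA (-2.44 ± 0.43, adjusted p = 5.3e-05, and -3.73 without TAZ4SA replicate 3) and in YAP5SA (-2.97 ± 0.44, adjusted p = 3.6e-06). In the fusions it held 72.1, 116 and 89.4 CPM (TAZ-CAMTA1; -0.24 ± 0.40) and 51.1, 82.3 and 63.9 CPM (YAP-TFE3; -0.73 ± 0.40), neither called. It was higher in TAZ-CAMTA1 than in TAZ4SA by 2.2 ± 0.43 (adjusted p = 0.00019, and 3.49 without TAZ4SA replicate 3), and in YAP-TFE3 than in YAP5SA by 2.24 ± 0.44 (adjusted p = 9.4e-05).

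Acaca, the acetyl-CoA carboxylase of the cytosol, fell in YAP5SA (91.8, 68.7 and 91.3 CPM, from 141, 176 and 149 CPM in EV; -0.89 ± 0.14, adjusted p = 6.3e-06), in TAZ4SA (85.7, 98.9 and 128 CPM; -0.58 ± 0.14, adjusted p = 0.0012) and in TAZ-CAMTA1 (102, 125 and 109 CPM; -0.48 ± 0.14, adjusted p = 0.015), where the call was lost under some alternatives. In TFE3, at 159, 146 and 156 CPM, it was level with EV (-0.01 ± 0.14). Fads1, the delta-5 desaturase, rose in YAP5SA, from 285, 373 and 315 CPM to 558, 492 and 531 CPM (0.70 ± 0.11, adjusted p = 8e-06), and its neighbor Fads2, the delta-6 desaturase, rose there by 0.66 ± 0.12. No other expressed protein raised either gene. Fads2 was called lower in TFE3 (114, 101 and 97.3 CPM, from 121, 181 and 147 CPM in EV), a call lost under some alternatives. Fasn, fatty acid synthase, fell in TAZ4SA and YAP-TFE3 by 0.69 and 0.60, Scd1 in TAZ4SA, YAP5SA and TFE3 by 0.46, 0.43 and 0.49, Scd2 in the fusions and TAZ4SA by 0.48 to 0.60, and Acly in YAP-TFE3 by 0.58.

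Averaged over each list on the log2 CPM scale, sterol genes moved further from EV than fatty acid genes in every group. The mean sterol level differed from the EV mean by -1.33 ± 0.45 (SD, n = 3) in TAZ4SA, -0.80 ± 0.26 in YAP-TFE3, -0.73 ± 0.26 in TFE3, -0.71 ± 0.23 in YAP5SA and -0.62 ± 0.33 in TAZ-CAMTA1. The fatty acid level differed by -0.72 ± 0.23, -0.47 ± 0.17, -0.40 ± 0.12, -0.41 ± 0.20 and -0.26 ± 0.20 in the same order. The YAP5SA mean does not describe the whole list, since 5 of the 8 genes had fitted log2 changes below 0 and 3 above. Those changes ran from -2.97 (Elovl6) to 0.70 (Fads1), with a median of -0.22. EV libraries themselves spread from -0.36 to 0.28 for sterol genes, so TAZ-CAMTA1 replicate 2 (-0.25) lay inside the EV range.

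The difference between the lists, sterol minus fatty acid level within a library, had a smaller SD among replicates than the sterol level in every group, though not always than the fatty acid level. It was -1.85, -1.6 and -1.61 in EV, and every library of TAZ-CAMTA1 (-2.12, -1.88 and -2.13), TAZ4SA (-2.42, -2.45 and -2.01), YAP-TFE3 (-2.13, -1.99 and -1.96), YAP5SA (-1.97, -2.02 and -1.97) and TFE3 (-1.88, -2.16 and -2.03) was below the lowest EV library. EVsub (-1.51, -1.84 and -1.56) overlapped EV, and CAMTA1 (-1.59, -1.53 and -1.56) lay inside the range of EVsub, its control. The lowest CAMTA1 library (-1.587) was only just above the highest EV library (-1.595), which was collected at another cell density. These are descriptions of 2 lists and were given no test.

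**Figure D4:**
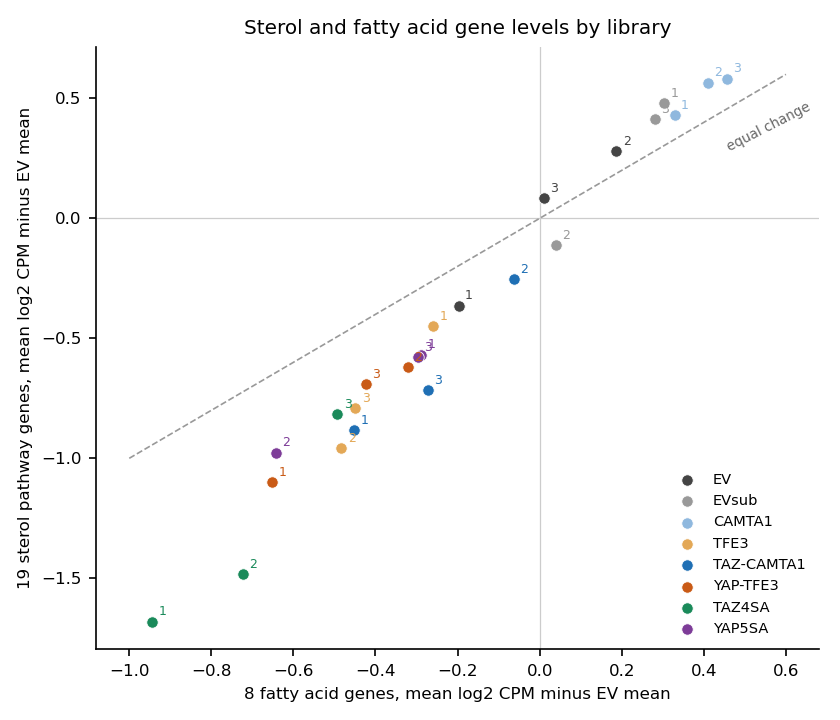
Mean log2 CPM of the 19 sterol genes (y axis) against that of the 8 fatty acid genes (x axis) in each library, both minus the EV mean; numbers are replicates and the dashed line marks equal change. Libraries form a band steeper than the line, from TAZ4SA replicate 1 (-0.94, -1.68) to CAMTA1 replicate 3 (0.46, 0.58), and replicates of a group spread along it.

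Direct comparisons of the fusions with the hyperactive forms used no EV library. The shares of members called in either direction were near or below those of all genes. TAZ-CAMTA1 was higher than TAZ4SA for 17 members and lower for 2, where 54.7% of all genes were called (26.6% higher and 28.1% lower). Those higher included 11 of the sterol list, such as Hmgcs1 (1.8 ± 0.36, and 2.52 without TAZ4SA replicate 3), Idi1 (1.77 ± 0.49, and 3.23) and Msmo1 (1.33 ± 0.28), with Mylip (1.21 ± 0.21) and Insig1 (1.19 ± 0.23). Ggps1 (-0.48) and Srebf1 (-0.71) were lower.

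YAP-TFE3 and YAP5SA differed in both directions: 8 members were higher and 13 lower in YAP-TFE3, where 70.9% of all genes were called (36.4% higher and 34.5% lower). Lower were Mvd (-2.01 ± 0.28), Fdft1 (-1.82 ± 0.22), Pmvk (-1.09 ± 0.21), Srebf1 (-1.2 ± 0.17), Srebf2 (-0.96 ± 0.15), Fads1 (-1.02 ± 0.11) and Fads2 (-0.92 ± 0.12), among others. Higher were Mylip (2.7 ± 0.23), Elovl6, Abca1 (1.6 ± 0.30), Dhcr7 and Hmgcs1 (1.07 ± 0.35), among others. The median of the sterol list was 0.02 in this comparison.

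TAZ4SA against YAP5SA gave 16 members lower and 3 higher in TAZ4SA, where 42.4% of all genes were called (19.6% lower and 22.8% higher). Mvd (-1.43 ± 0.27), Fdft1 (-1.41 ± 0.22), Nsdhl (-1.37 ± 0.25) and Fdps (-1.13 ± 0.30) were lower in TAZ4SA. Mylip (1.31 ± 0.22), Abca1 (0.77 ± 0.29) and Ggps1 (0.52 ± 0.13) were higher. Hmgcs1 (-0.21 ± 0.35) and Idi1 (-0.17 ± 0.50) were not called, but without TAZ4SA replicate 3 both were lower in TAZ4SA (-0.93 and -1.63, adjusted p = 0.026 and 0.0081). Lss (-1.06), Msmo1 (-0.88), Mvk (-0.71) and Sqle (-0.63) were then also called lower. Without that library the calls of Acly, Ebp, Fasn, Insig1 and Srebf1 as lower, and of Abca1 as higher, were lost.

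Between the fusions, 3 members were called, all lower in TAZ-CAMTA1 (11.6% of all genes called, 6.32% lower and 5.32% higher): Abca1, Dhcr7 and Insig2 (-0.43 ± 0.11). YAP-TFE3 against TFE3, which share the carboxyl end of TFE3, gave 4 calls where 22.9% of all genes were called (8.62% lower and 14.3% higher): Hsd17b7 (-0.88 ± 0.27), Mylip (-0.60 ± 0.21) and Acaca (-0.38 ± 0.14) lower and Dhcr7 higher in YAP-TFE3. That count fell to 0 without YAP-TFE3 replicate 1, to 1 without TFE3 replicate 1 or 3 and to 2 without TFE3 replicate 2.

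EVsub against EV, which compares cell densities, gave 7 calls, 4 higher and 3 lower, where 22.1% of all genes were called (12.5% higher and 9.59% lower), so the share of members was near the background. Higher were Mvk, Pmvk (0.59 ± 0.21), Acly (0.42 ± 0.14) and Fads2 (0.35 ± 0.11), and lower were Abca1, Mylip and Scap. Without EV replicate 1, EV replicate 3 or EVsub replicate 1, the calls left were 3, all of them lower. All 8 markers of dividing cells were higher in EVsub than in EV, with summed levels of 716.0 to 2040.0 CPM against 367.2 to 686.7 CPM, and their part in these differences was not tested. CAMTA1 against EVsub gave 0 calls with edgeR (2.18% of all genes called, 1.29% higher and 0.891% lower) and 0 with DESeq2, with 5 members at an unadjusted p under 0.05. All 19 sterol genes had log2 changes above 0 (median 0.20, against -0.03 over all genes), but these genes moved together between libraries. No call in that comparison means that differences of this size were not detected with 3 libraries a group. The mean sterol level was 6.98, 7.12 and 7.14 log2 CPM in CAMTA1 and 7.04, 6.44 and 6.97 in EVsub. EVsub replicates 1 and 3 were thus close to CAMTA1, and EVsub replicate 2 was the lowest.

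Of 30 other genes of these pathways, all measured, 14 rose and 10 fell in YAP5SA, 7 rose and 7 fell in TAZ4SA, 5 rose and 2 fell in YAP-TFE3, 2 rose and 3 fell in TAZ-CAMTA1, 3 rose and 1 fell in TFE3, 5 rose and 0 fell in EVsub, and 1 rose in CAMTA1. The shares called in YAP5SA, TAZ4SA, TAZ-CAMTA1 and EVsub were near or below those of all genes (71.2%, 57.5%, 21.5% and 22.1%). Those named passed an absolute log2 change of 1, except Fntb, Fnta and Dhdds, which are given with the other isoprenoid users. In YAP5SA, Me1, malic enzyme, went from 31.6, 41.7 and 31.8 CPM in EV to 110.2, 109 and 116 CPM (1.67 ± 0.14), Acss2, acetyl-CoA synthetase, from 9.79, 13.8 and 8.76 CPM to 30.7, 23.4 and 27.9 CPM (1.34 ± 0.18), and Slc25a1, the mitochondrial citrate carrier, from 124, 141 and 141 CPM to 312, 253 and 303.5 CPM (1.1 ± 0.13). Me1 also rose in TAZ4SA by 1.31 ± 0.14.

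Of the steps that elongate fatty acids, Tecr, a reductase, rose in YAP5SA (1.06 ± 0.13) and Hsd17b12, a keto-reductase, fell in TAZ4SA (-1.05 ± 0.16). Mbtps2, the membrane protease that releases SREBPs, fell in YAP5SA from 29.7, 33.8 and 31.1 CPM to 10.6, 13.3 and 9.69 CPM (-1.49 ± 0.20, adjusted p = 1.1e-06). Of 7 isoprenoid users, 3 rose in YAP5SA (Fntb by 0.87, Fnta by 0.45 and Dhdds by 0.45) and 2 fell: Pdss1, which makes the ubiquinone tail (-1.84 ± 0.31), and Pggt1b, a geranylgeranyl transferase subunit (-1.12 ± 0.21). Stard3, a late endosomal sterol carrier, and Scarb1, the HDL receptor, rose there by 1.12 ± 0.14 and 1.04 ± 0.14.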

How the data were processed

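RNA-seq was analysed for 24 NIH 3T3 libraries, 3 in each of 8 groups. The deposited files hold raw counts of reads per Ensembl gene. The study's methods name TruSeq stranded polyA libraries, bcbio-nextgen, Hisat2 alignment to mm10, and Salmon with tximport for gene-level counts, and the labels add bcl2fastq; which of these routes gave the deposited whole-number counts, and its strand setting, are not given in the sources used here. Groups and replicate numbers came from the sample titles; for YAP-TFE3 replicate 3 another label carries the number 2. Gene positions are from GENCODE vM21, which matched 37607 identifiers.

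Counts were fitted with edgeR 4.0.16 (R 4.3.3; TMM, glmQLFit and glmQLFTest, 1 coefficient per group, all 24 libraries; genes averaging under 5 counts per library left out), with Benjamini-Hochberg adjustment over all 14361 genes and a call at 0.05. SE is the log2 change divided by the square root of F. CPM use TMM-scaled totals, and list levels use log2 CPM with a prior count of 2. The code was tested on simulated data. Members with per-library values were the 3 largest called changes of each role list and those called in at least 4 of 7 comparisons with a control. Dhcr7 was added after its values were seen. Of the 30 other pathway genes, those named had a call at an absolute log2 change of 1 or more, except Fntb, Fnta and Dhdds. Members and lists were chosen with earlier results of these data known. Alternatives were DESeq2 1.42.0 and its size factors, other filters on low counts, 2-group fits, a replicate block, a fold threshold and leaving out each library. Replicates differed by more than counting noise (chi-square per degree of freedom from 5.91 to 123.81), so none was merged. Columns of values left unused numbered 0.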

Additional observations from a re-analysis of the deposited data

How the results depend on the processing

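Requiring an absolute log2 change of at least 1 left 4 members called in TAZ-CAMTA1, 17 in TAZ4SA, 6 in YAP-TFE3, 13 in YAP5SA, 2 in TFE3 and 2 in EVsub against EV, and 9 for TAZ-CAMTA1 against TAZ4SA, 10 for YAP-TFE3 against YAP5SA, 0 for YAP-TFE3 against TFE3 and 5 for TAZ4SA against YAP5SA. For TFE3 the count of 7 rose to 19 with no filter, 19 in a 2-group fit and 13 with DESeq2. No filter gave 1 for CAMTA1 and 5 for TAZ-CAMTA1 against YAP-TFE3 (from 3), and 2-group fits gave 4 for EVsub (from 7) and 9 for YAP-TFE3 against TFE3 (from 4). As medians, sterol minus fatty acid levels moved to -1.69 in CAMTA1, -2.26 in YAP-TFE3 and -1.94 in YAP5SA. Why these counts moved was not tested.

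Leaving out 1 library gave 5 to 13 calls for TAZ-CAMTA1, 24 to 28 for TAZ4SA, 10 to 24 for YAP-TFE3, 25 to 26 for YAP5SA, 0 to 8 for TFE3, 3 to 8 for EVsub, and 0 to 0 for CAMTA1; 15 to 22 for TAZ-CAMTA1 against TAZ4SA, 18 to 21 for YAP-TFE3 against YAP5SA, 0 to 4 for YAP-TFE3 against TFE3, 13 to 19 for TAZ4SA against YAP5SA and 2 to 3 between the fusions. Calls under every alternative other than the fold threshold numbered 5 in TAZ-CAMTA1, 22 in TAZ4SA, 10 in YAP-TFE3, 24 in YAP5SA, 0 in TFE3 and 3 in EVsub. Elovl6 in TAZ4SA against YAP5SA, not called (0.53), ran from -0.76 to 0.91 when 1 library was left out, with the negative value (adjusted p = 0.075) without TAZ4SA replicate 3.

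The main fit did not pair samples by replicate number. Same-numbered libraries had deviations correlated between -0.21 and 0.41, and in no comparison were all 3 pairs over 0.1. The highest values were in CAMTA1 against EVsub (0.25, -0.002 and 0.41). A replicate block gave 11 calls in TAZ-CAMTA1, 26 in TAZ4SA, 23 in YAP-TFE3, 28 in YAP5SA, 6 in TFE3 and 7 in EVsub.

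The limits are 3 libraries a group, shared EV libraries, unknown strand use for members that overlap other genes, and a spread among replicates that the sterol genes share.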
